A study of Sus scrofa with 36 samples.

Results

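ME1, ELOVL6, PNPLA3, GPAM, ACSS2 and FDPS, 6 of the 6360 genes measured, code for enzymes and a lipid droplet protein of lipid synthesis, and they were followed across 36 mammary glands. All 6 were measured, by 12 probe sets in all. Each gene was read from the probe set that carries its symbol alone and has the highest mean over the 36 arrays. The animals were female Yucatan miniature pigs 5 months old, with 4 animals and 1 Affymetrix array per animal in each of 9 groups. In the sham group the ovaries were left in place and saline was given over 13 days. The other 32 animals were all ovariectomized. All of these were first treated for 8 days with bromocriptine, which activates dopamine receptors and so lowers prolactin. For the next 5 days 16 of them stayed on bromocriptine, alone (B) or with estrogen (BE), progesterone (BP) or both (BEP). The remaining 16 were switched to haloperidol, which blocks dopamine receptors and so raises prolactin, alone (H) or with estrogen (HE), progesterone (HP) or both (HEP). Every animal was given BrdU 24 hours before the end. No group was ovariectomized without a dopamine drug, and the sham animals differ from the others in both ovaries and drug.

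The 6 enzymes stand at different steps of lipid synthesis. ACSS2 makes cytosolic acetyl-CoA from acetate, ME1 (cytosolic malic enzyme) makes NADPH for fatty acid synthesis, and ELOVL6 lengthens long-chain fatty acids. GPAM, the mitochondrial glycerol-3-phosphate acyltransferase, attaches the first fatty acid to glycerol-3-phosphate, the start of triglyceride and phospholipid synthesis. PNPLA3 is a lipid droplet protein with acylglycerol hydrolase activity, and FDPS, farnesyl diphosphate synthase, acts in the mevalonate pathway to cholesterol and isoprenoids. In the mammary gland such enzymes work both in the epithelial cells that make milk fat and in the adipocytes of the fat pad, which in pigs are a main site of fatty acid synthesis. RNA of the whole gland was measured, so fewer cells of a type and less RNA per cell cannot be told apart.

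Values are log2 signals after RMA, a method that summarises the probes of each probe set, and changes are log2 differences ± SE from limma over all 20792 probe sets. A change was called when its p, adjusted by the method of Benjamini and Hochberg over all probe sets, was under 0.05. The array medians lay between 7.83 and 7.91. The epithelial marker KRT8 (11.3 to 13.0) and the adipocyte marker FABP4 (11.9 to 12.8) were above the median of every array. Other adipocyte markers were not: ADIPOQ was above it in 15 of 36 animals and LEP in 25. Animal A of group BP (BP A) did not resemble the other BP animals. Its array was at 70.0 on the first principal component, with the other BP arrays at -65.3, -48.3 and -53.8. It lay nearest to the mean of HE. Lying nearest to another group was not particular to it, since BP B lay nearest to H and BP C and BP D to HP. Results that change without BP A are given both ways. GPAM was the dimmest of these probe sets, below the lower quartile of its array (5.90 to 6.09) in 23 of 36 animals. Detection was not measured, so low GPAM values are uncertain and folds from them may be too small.

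Estrogen with haloperidol (HE) was the combination in which 3 of these genes were lowest and GPAM highest. HE against BE compares haloperidol with bromocriptine when estrogen is present. Of the 6 genes 3 fell (ME1, ELOVL6 and PNPLA3) and 1 rose (GPAM), where 5.05% of all probe sets fell and 5.46% rose. Values of all 4 HE animals were beyond all 4 BE animals for 5 of the 6 genes. They were lower for ME1, ELOVL6 and PNPLA3, as for 8.37% of all probe sets, and higher for GPAM and FDPS, as for 9.07%.

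**Figure D1:**
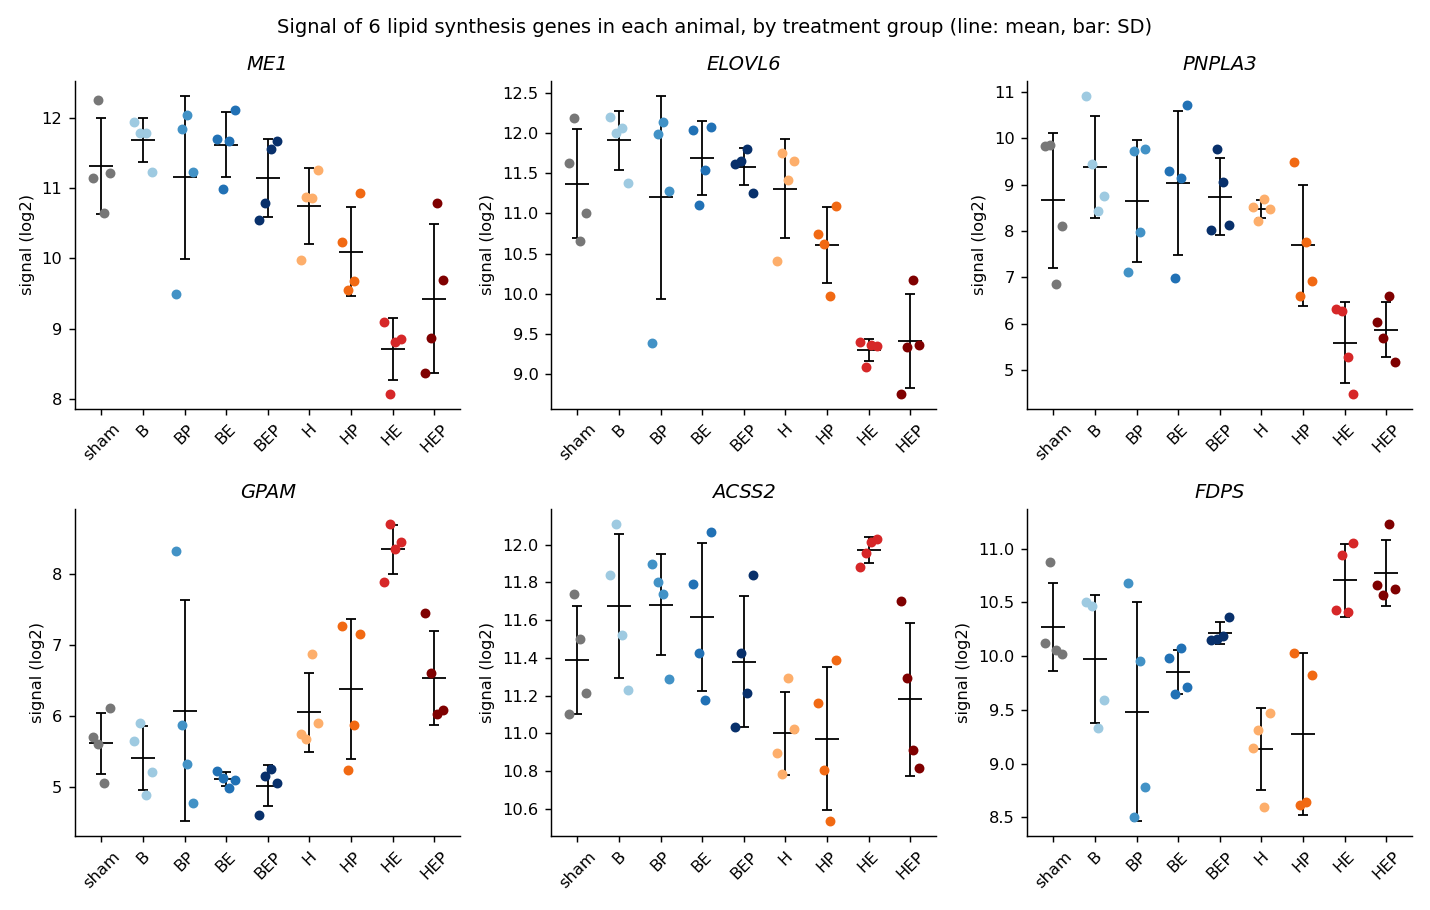
Log2 signal (vertical axis) of each animal (points, 4 per group) in the 9 treatment groups (horizontal axis), with 1 panel per gene, the group mean as a line and the SD as a bar. HE animals lie between 7.89 and 8.71 for GPAM, above the animals of every other group except BP A at 8.32, and at 9.40 or less for ELOVL6.

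ME1 was at 11.69, 10.99, 11.67 and 12.10 in the BE animals and at 9.10, 8.07, 8.81 and 8.85 in the HE animals. No HE animal reached the lowest BE animal, and ME1 fell 7.49-fold (-2.90 ± 0.47, limma adjusted p = 0.000193, n = 4 per group). ELOVL6 was at 12.04, 11.10, 11.54 and 12.07 in BE. In HE it was at 9.40, 9.09, 9.37 and 9.35, a narrow range with an SD of 0.14. The groups did not overlap, and ELOVL6 fell 5.23-fold (-2.39 ± 0.42, limma adjusted p = 0.000436).

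PNPLA3 varied more between animals than ME1 or ELOVL6. Its values were 9.29, 6.98, 9.14 and 10.72 in BE and 6.32, 6.27, 5.28 and 4.49 in HE. Every BE animal was above every HE animal, and the fall was 10.9-fold with a wide 95% interval (-3.44, from -4.94 to -1.95, limma adjusted p = 0.00269). In the H group the same gene was tightly grouped, at 8.53, 8.20, 8.68 and 8.48.

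GPAM went the other way. It was at 5.23, 5.12, 4.98 and 5.11 in the BE animals, all below the lower quartile of the array. In the HE animals it was at 7.89, 8.71, 8.35 and 8.44. GPAM rose 9.43-fold (3.24 ± 0.49, limma adjusted p = 7.84e-05). In the order of group means, HE (8.35) was followed by HEP (6.54), HP (6.38), BP (6.08), H (6.05), sham (5.62), B (5.41), BE (5.11) and BEP (5.02). Only HE and HEP, the first step of that order, did not overlap, and every later pair of neighbours did. The place of BP rests on BP A, at 8.32, with the other BP animals at 5.87, 5.33 and 4.78.

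ACSS2 and FDPS were not called in this comparison. ACSS2 was at 11.79, 11.43, 11.18 and 12.07 in BE and at 11.88, 11.96, 12.01 and 12.03 in HE, so the groups overlapped (0.35 ± 0.23, 95% interval -0.12 to 0.83, adjusted p = 0.351). FDPS was at 9.98, 9.65, 10.07 and 9.71 in BE and at 10.43, 10.95, 10.41 and 11.05 in HE. All 4 HE animals lay above the BE animals (0.85 ± 0.36, exact permutation p = 0.0286, the smallest that 4 against 4 can give), but the limma test across all probe sets did not call it (adjusted p = 0.127). FDPS was called when the fit held only the groups compared (adjusted p = 0.0344) and with array weights (adjusted p = 0.0439).

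Without estrogen, haloperidol called none of the 6 genes. In H against B 0.0337% of all probe sets were called (7 by limma, with 2191 at an unadjusted p under 0.05), so this comparison called almost nothing at all. ME1 was at 11.94, 11.78, 11.78 and 11.23 in B and at 9.98, 10.86, 10.86 and 11.26 in H (-0.94 ± 0.47, adjusted p = 0.479). The H animals were lower on average, with 1 above the lowest B animal. GPAM was at 5.64, 5.90, 4.88 and 5.21 in B and at 5.75, 5.67, 6.87 and 5.90 in H, overlapping (0.64 ± 0.49, 95% interval -0.36 to 1.63). ACSS2 differed by -0.68 ± 0.23 and FDPS by -0.84 ± 0.36, with adjusted p = 0.285 and 0.418.

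HP against BP, the same contrast under progesterone, called 0 of the 6 and 0% of all probe sets (limma, with 1006 at an unadjusted p under 0.05). Animal BP A carried much of the spread there. ME1 in BP was at 9.49 in animal A and at 11.84, 12.04 and 11.23 in the others, and ELOVL6 at 9.39 against 11.99, 12.14 and 11.28. GPAM in BP was at 8.32 in animal A and at 5.87, 5.33 and 4.78 in the others. Animal A lay within the range of the HE animals for ELOVL6 and GPAM and a little above it for ME1. For PNPLA3 animal A was at 7.12, above all HE animals (4.49 to 6.32). It also had the lowest adipocyte marker score of its group (-0.87) and the highest milk gene score (2.25), whose part in these values was not tested.

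With estrogen and progesterone together, HEP against BEP, 2 of the 6 genes fell and none rose (0.447% and 0.635% of all probe sets). ELOVL6 was at 11.61, 11.65, 11.80 and 11.25 in BEP and at 8.76, 9.34, 10.18 and 9.36 in HEP. No animal of either group lay in the range of the other, and it fell 4.50-fold (-2.17 ± 0.42, limma adjusted p = 0.00838). PNPLA3 fell 7.31-fold (-2.87 ± 0.73, limma adjusted p = 0.0453), from 8.02, 9.78, 9.05 and 8.12 to 6.03, 5.68, 6.60 and 5.17. That call was lost without any 1 of 20 of the 36 animals (adjusted p up to 0.176). ME1 was at 10.55, 10.78, 11.55 and 11.67 in BEP and at 8.37, 8.87, 10.79 and 9.68 in HEP, where animal C overlapped the BEP range (-1.71 ± 0.47, adjusted p = 0.0657). GPAM was at 4.61, 5.16, 5.25 and 5.05 in BEP and at 7.45, 6.61, 6.02 and 6.08 in HEP, with no overlap (1.52 ± 0.49, adjusted p = 0.121). Without BP A, which is in neither group but enters the shared estimate of spread, both were called (ME1 adjusted p = 0.0165, GPAM 0.0172), and without HEP C ME1 was called as well (0.0175).

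**Figure D2:**
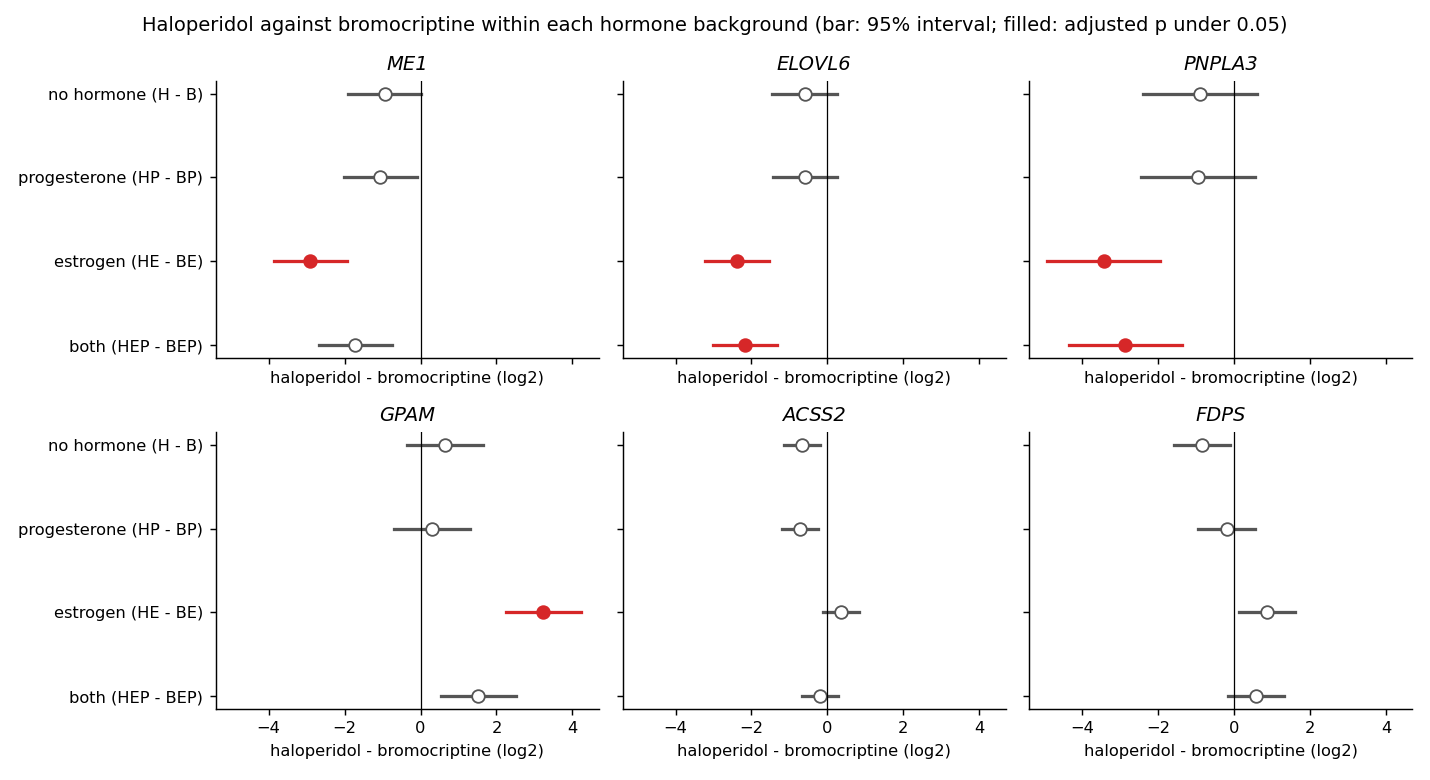
Log2 difference of haloperidol minus bromocriptine (horizontal axis) for each gene (panels) in the 4 hormone backgrounds (vertical axis), with 95% intervals as bars and filled points where the adjusted p was under 0.05. Filled points lie only in the 2 backgrounds with estrogen, at -2.90 for ME1 and 3.24 for GPAM in HE against BE.

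Whether the response to haloperidol differed with estrogen was tested as an interaction, the response in the estrogen groups minus that in the groups without it. Of the 6 genes 3 had a higher value with estrogen and 1 a lower one (3.87% and 3.62% of all probe sets). GPAM had an interaction of 1.91 ± 0.49 (limma adjusted p = 0.0177) and ELOVL6 of -1.68 ± 0.42 (limma adjusted p = 0.0153). ACSS2 (0.77 ± 0.23, limma adjusted p = 0.0397) and FDPS (1.23 ± 0.36, limma adjusted p = 0.0356) were called although neither was called in HE against BE or in H against B. The differences of ACSS2 were -0.68 in H against B, -0.71 in HP against BP, 0.35 in HE against BE and -0.20 in HEP against BEP. For FDPS they were -0.84, -0.20, 0.85 and 0.56. ME1 (-1.31 ± 0.47, adjusted p = 0.0800) and PNPLA3 (-2.22 ± 0.73, adjusted p = 0.0583) were not called.

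Single animals decided several of these calls. Without BP A the interaction was called in 2 of the 6 genes, GPAM and ELOVL6. Of all 20792 probe sets it was then higher in 524 and lower in 505. ACSS2 (0.74, adjusted p = 0.0658) and FDPS (1.03, adjusted p = 0.0620) were not called without BP A. ACSS2 was lost without any 1 of 18 of the 36 animals (adjusted p = 0.0537 to 0.0707) and FDPS without any 1 of 12 (0.0519 to 0.0661). ME1 was called without BP B, BP C or HEP C, and PNPLA3 without sham C, B A, BE B, BP B or BP D. The GPAM and ELOVL6 interactions were called without each of the 36 animals in turn.

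Averaged over drug and progesterone, estrogen raised 1 of the 6 genes and lowered 3, in an effect that called 17.5% of all probe sets higher and 17.6% lower. FDPS rose (0.92 ± 0.18, limma adjusted p = 0.000249). ME1 (-0.69 ± 0.24), ELOVL6 (-0.76 ± 0.21) and PNPLA3 (-1.24 ± 0.37) fell. The second ME1 probe set was not called (-0.53 ± 0.34, limma adjusted p = 0.231). Nor was ME1 when all probe sets of a gene were averaged (-0.61, limma adjusted p = 0.0828). Of the other ELOVL6 probe sets, that at -0.48 was not called (limma adjusted p = 0.199), while those at -0.50 and -0.80 were. Within bromocriptine, BE against B called none of the 6, where 3.78% of all probe sets were called (3470 at an unadjusted p under 0.05). All 6 differences lay between -0.35 and -0.06 there, and the 95% interval of ME1 ran from -1.03 to 0.89. GPAM was not called on average (0.27 ± 0.24, adjusted p = 0.402) but was without BP A (0.46, adjusted p = 0.0471).

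Within haloperidol, HE against H, all 6 genes were called: GPAM, ACSS2 and FDPS rose and ME1, ELOVL6 and PNPLA3 fell (9.81% and 10.1% of all probe sets). GPAM rose 4.92-fold (2.30 ± 0.49) and ELOVL6, at 10.41, 11.74, 11.42 and 11.65 in H, fell 4.02-fold (-2.01 ± 0.42). FDPS was at 9.14, 9.32, 8.60 and 9.47 in H, below every HE animal, and rose 2.98-fold (1.57 ± 0.36). ACSS2 was at 10.89, 10.78, 11.30 and 11.02 in H and within 11.88 to 12.03 in HE, a rise of 1.96-fold (0.97 ± 0.23). The groups were apart in all 6 genes. Over all probe sets every HE animal was above every H animal in 12.4% and below in 13.4%. The calls of the 6 genes remained without each animal in turn. The HE animals enter both this comparison and HE against BE, so the 2 are not independent.

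Progesterone called none of the 6 on average, where 0.0914% of all probe sets were called by limma (1024 at an unadjusted p under 0.05). It called none in its interaction with estrogen (0.25%, 2158 unadjusted) or with haloperidol (0%, 971 unadjusted). HEP against HE was added after the values were seen, because GPAM in the HEP animals, at 6.02 to 7.45, lay below all HE animals. GPAM was -1.81 ± 0.49 from its HE level and was not called (limma adjusted p = 0.0985), in a comparison that called none of the 6 genes and 0.476% of all probe sets. ACSS2 was at 11.70, 11.29, 10.91 and 10.81 in HEP, also below every HE animal (-0.79 ± 0.23, adjusted p = 0.141). Without BP A the GPAM difference was called (adjusted p = 0.00881), and without HEP A both were (GPAM 0.0358, ACSS2 0.0411). The second probe sets of GPAM (-1.09 ± 0.45, limma adjusted p = 0.399) and ACSS2 (-1.18 ± 0.47, limma adjusted p = 0.378) were not called. ELOVL6 (0.11, 95% interval -0.74 to 0.95), PNPLA3 (0.28, -1.21 to 1.78) and FDPS (0.07, -0.67 to 0.80) were near the HE level in HEP, within wide intervals.

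Against the sham animals, with ovaries and saline, HE had 3 genes lower and 1 higher (1.61% and 2% of all probe sets). ME1 was at 11.14, 12.25, 10.65 and 11.21 in sham and fell 6.08-fold (-2.60 ± 0.47, limma adjusted p = 0.00202). GPAM, at 5.70, 5.60, 5.06 and 6.11 in sham, rose 6.63-fold (2.73 ± 0.49, limma adjusted p = 0.00190). ELOVL6 fell 4.19-fold (-2.07 ± 0.42), and PNPLA3 fell 8.38-fold (-3.07 ± 0.73), which was not called without sham A, sham B or HE D (adjusted p = 0.0583 to 0.0723). In HEP 2 genes fell and none rose (0.351% and 0.38%): ELOVL6 (-1.96 ± 0.42, limma adjusted p = 0.0196) and, barely, ME1 (-1.89 ± 0.47, limma adjusted p = 0.0495). The ME1 call was lost without any 1 of 28 of the 36 animals (adjusted p up to 0.184), and the ELOVL6 call without sham A, sham B, HEP A, HEP B or HEP D (0.0589 to 0.0869). Of the other ELOVL6 probe sets in HEP, those at -1.31 and -1.84 were not called (limma adjusted p = 0.104 and 0.118), while that at -2.11 was. The second ME1 probe set was not called in HEP (limma adjusted p = 0.150). In HE an ELOVL6 probe set at -1.31 was not called (limma adjusted p = 0.0551), while those at -2.36 and -2.26 were. PNPLA3 in HEP (-2.79 ± 0.73, adjusted p = 0.0660) was called without sham C, BE B, BP A or HP A. B and BE against sham called none of the 6 (4.18% and 0.63% of all probe sets, 4044 and 3267 at an unadjusted p under 0.05). In B the 6 differences from sham lay between -0.30 and 0.73.

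GPAM was set against the other 5 by centring each gene on its mean over the 36 animals and taking GPAM minus the mean of the others. That difference was -0.85 ± 0.65 (SD, n = 4) in sham, -1.38 ± 0.32 in B, -1.52 ± 0.55 in BE and -1.46 ± 0.06 in BEP. On haloperidol it was 0.06 ± 0.56 in H, 0.79 ± 0.49 in HP, 1.34 ± 0.95 in HEP and 3.23 ± 0.43 in HE. Every haloperidol animal lay above every B, BE and BEP animal, and HE animals, from 2.60 to 3.58, lay above all other animals except BP A (2.74). The sham animals were not all below, since sham D (-0.07) lay above H B (-0.37) and H D (-0.34). In BP the mean was -0.22 ± 2.0, which rests on that animal. The mean of the other 5 hides a split, because ME1, ELOVL6 and PNPLA3 were lowest in HE while ACSS2 was highest there. Against ME1, ELOVL6 and PNPLA3 alone the difference was -1.87 ± 0.81 in BE and 4.28 ± 0.60 in HE. By that measure H B (-0.80) lay below BE B (-0.77), and HEP A (3.53) and BP A (3.45) lay above HE A (3.42). These differences are a description, since the genes entering them were tested one by one above.

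**Figure D3:**
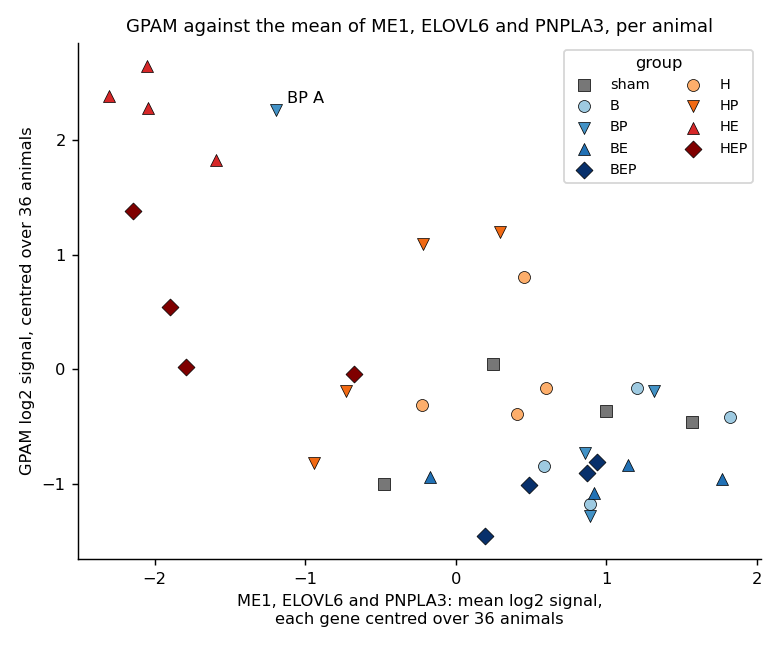
GPAM log2 signal (vertical axis) against the mean log2 signal of ME1, ELOVL6 and PNPLA3 (horizontal axis), each gene centred over 36 animals, 1 point per animal with the group shown by colour and shape. The 4 HE animals and BP A lie at the upper left, and the BE and BEP animals along the bottom, most of them to the right.

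Within groups 2 of 15 pairs of the genes were called as varying together (adjusted p under 0.05). How often pairs of other genes vary together within groups was not measured. Each animal's deviation from its group mean was compared over 36 animals, with values permuted within groups and p adjusted over the 15 pairs. ME1 and ELOVL6 deviated together (Pearson r = 0.857, Spearman rho = 0.807, permutation p = 1e-05, the smallest 100000 resamples can give, adjusted 0.00015 for both), with r = 0.800 without BP A and HEP C, the animals farthest out. GPAM and ACSS2 deviated together less closely (r = 0.546, permutation p = 0.0010, adjusted 0.0075, rho = 0.565, adjusted 0.0151), and r was 0.558 without the 2 farthest animals. GPAM and FDPS had a similar r (0.554, permutation p = 0.04207, adjusted 0.1132) but were not called, and their r was 0.331 without BP A. ELOVL6 and PNPLA3 were not called either (r = 0.477, permutation p = 0.01255, adjusted 0.06275). GPAM and ME1 had r = -0.31 (permutation p = 0.257, adjusted 0.482), which was 0.01 without BP A and HEP C, so no relation between them was detected within groups. The animals share their platform and tissue, and no batch is named in the labels used here.

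**Figure D4:**
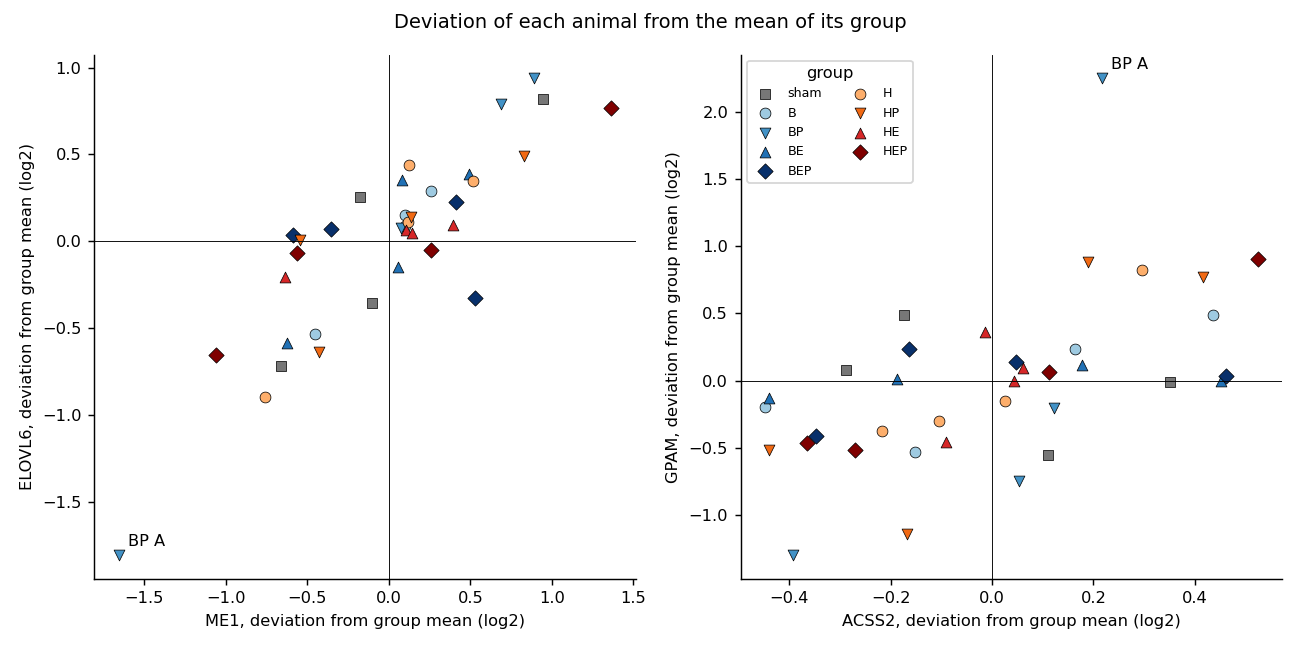
Deviation of each of 36 animals from the mean of its group (log2), ELOVL6 against ME1 on the left and GPAM against ACSS2 on the right, with groups by colour and shape. ME1 and ELOVL6 vary together (r = 0.857, and 0.797 without BP A at the lower left).

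Other probe sets for the same genes had the same signs for haloperidol on average and for its interaction with estrogen. The 3 further ELOVL6 probe sets fell with haloperidol on average (-1.36 to -1.96), and 2 of them were called in the interaction with estrogen, while the other was not (-1.52 ± 0.57, adjusted p = 0.0945). The second GPAM probe set, with a mean of 4.74 over the arrays, rose with haloperidol (1.08 ± 0.22, limma adjusted p = 0.00293) and had an interaction of 1.97 ± 0.45 (limma adjusted p = 0.0105). The second ACSS2 probe set had a larger interaction than the first (1.77 ± 0.47, limma adjusted p = 0.0228). For ME1 the second probe set was also not called in the interaction (-2.05 ± 0.68, adjusted p = 0.0591).

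Other genes of the fatty acid synthesis list were measured for 16 of 25 listed. Averaged over hormones, haloperidol against bromocriptine (16 animals each) called 3 of the 6 genes lower and 1 higher (3.13% and 3.85% of all probe sets), and in this list 4 lower and 0 higher, where 8.22% of all genes were called in either direction. FASN, fatty acid synthase, fell (-1.24 ± 0.24, limma adjusted p = 0.00118), as did SLC25A1, the citrate carrier (-0.68 ± 0.16), SCD, stearoyl-CoA desaturase (-0.51 ± 0.09), and TKT, transketolase (-0.40 ± 0.12). ACACA, acetyl-CoA carboxylase, was at -0.18 ± 0.21 (adjusted p = 0.674). The median of the list was -0.20, against 0.03 over all genes. In the interaction, which called 8.82% of all genes, 1 gene of the list was called, ELOVL1 (1.38 ± 0.35), and FASN was at 0.32 ± 0.47 (adjusted p = 0.719).

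Among 22 measured of 35 listed genes of glycerolipid synthesis and lipid droplets, the pathway GPAM opens, haloperidol raised 4 on average and lowered 1. Over all probe sets 3.85% rose and 3.13% fell. The median of the list was -0.09 against 0.03 over all genes. Without BP A haloperidol raised 5 of the list and lowered 4 (1241 and 1190 of all 20792 probe sets). PLIN2, a lipid droplet coat protein of milk-secreting cells among others, rose (1.26 ± 0.20, limma adjusted p = 0.000107), as did CIDEB (0.83 ± 0.24) and PLIN3 (0.67 ± 0.16), both lipid droplet proteins. DGAT2, which makes triglyceride from diacylglycerol, fell (-1.07 ± 0.29). In the interaction 8 of the 22 were lower and 0 higher, the opposite sign to GPAM, with 8.82% of all genes called: LIPE, hormone-sensitive lipase (-2.14 ± 0.55), DGAT2 (-2.12 ± 0.57) and GPD1, which makes glycerol-3-phosphate (-1.85 ± 0.53), were the furthest, and LPIN1, a phosphatidate phosphatase, was among them (-1.11 ± 0.35). Without BP A 4 genes of the list were lower. AGPAT2, which acts in the step after GPAM, was at 0.09 ± 0.10 on average and at -0.16 ± 0.20 in the interaction (adjusted p = 0.626 and 0.664).

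Of 9 measured of 23 listed sterol and isoprenoid genes, where FDPS belongs, haloperidol raised 2 on average (8.22% of all genes called). They were HSD17B7 (0.79 ± 0.11, limma adjusted p = 4.61e-05) and NSDHL (0.53 ± 0.11), both enzymes of late cholesterol synthesis. NSDHL was also called in the interaction (1.03 ± 0.23), and the median interaction of the list was 0.34 against 0.04 over all genes. For fatty acid uptake and activation, 12 measured of 16, ACSL1, an acyl-CoA synthetase, fell (-0.81 ± 0.15, interaction -1.16 ± 0.30), while its relatives ACSL3 (0.74 ± 0.20) and ACSL6 (4.08 ± 0.87) rose. ACSL6 was at 3.06 ± 1.19 (SD) in BE and at 11.4 ± 0.16 in HE, so its fold rests on a dim signal. Of 11 measured of 19 regulators of lipid genes 0 were called for haloperidol on average, and 1 in the interaction, PPARGC1A, a coactivator (1.38 ± 0.34), which is near the share over all genes (8.22% and 8.82%). SREBF1, whose product drives fatty acid synthesis genes, was at 0.12 ± 0.11 (adjusted p = 0.561) and INSIG1, which restrains it, at 0.004 ± 0.15 (adjusted p = 0.991). STAT5A (0.95 ± 0.15, interaction 1.06 ± 0.30) and STAT5B (1.06 ± 0.17, interaction 1.45 ± 0.34), transcription factors of prolactin signalling, rose.

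**Figure D5:**
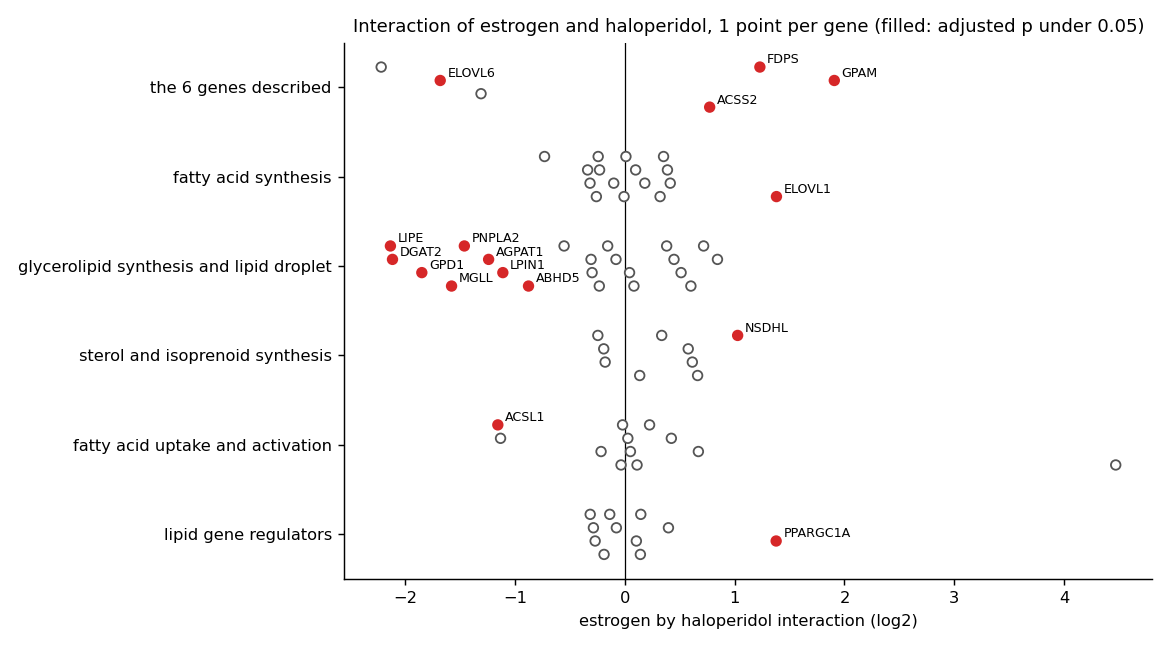
Interaction of estrogen with haloperidol (log2, horizontal axis) for the 6 genes and for 5 lists of lipid genes (vertical axis), 1 point per gene, filled where the adjusted p was under 0.05. GPAM lies at 1.91, while the 8 called genes of glycerolipid synthesis and lipid droplets lie below 0.

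Markers of adipocytes and of milk also differed between the groups. The adipocyte score was lowest in HE and HEP, as were ME1, ELOVL6 and PNPLA3. It did not follow them in the other groups: it was highest in H, where mean ME1 (10.74) was below that in BE (11.61). This score, the mean of 10 measured of 16 listed markers after centring each, was -0.90 in HE (from -1.10 to -0.66) and -0.92 in HEP (from -1.48 to -0.05). It was 0.00 in BE, -0.03 in BEP, -0.38 in sham, 0.13 in BP (from -0.87 in BP A to 0.85), 0.57 in B, 0.62 in HP and 0.90 in H. In HE against H 7 of 10 markers fell, with a median of -2.42 (23.3% of all genes called), and 7 of 10 fell with estrogen on average (38.7%). In HE against BE 2 of 10 fell (11.9% of all genes called), LEP, leptin (-2.01 ± 0.60), and LIPE (-1.93 ± 0.55), which is also in the glycerolipid list. ADIPOQ, adiponectin, was at -1.54 ± 0.58 (adjusted p = 0.0817), FABP4 at -0.07 ± 0.16 and LPL, lipoprotein lipase, at -0.09 ± 0.23. In the interaction 4 of 10 were lower (3.62% of all probe sets), among them ADIPOQ (-2.30 ± 0.58) and PCK1 (-2.81 ± 0.61). ADIPOQ ranged from 5.17 to 9.67 over the 36 animals and LEP from 6.44 to 10.9, and the part of these cells in the values of ME1, ELOVL6, PNPLA3 and the glycerolipid genes was not tested. HEP C, the HEP animal with the highest adipocyte score (-0.05), also had the highest ME1, ELOVL6 and PNPLA3 of its group. In HE it was otherwise: HE B, with the highest adipocyte score (-0.66), had the lowest ME1 (8.07) and ELOVL6 (9.09) of its group. PNPLA3 was at 6.27 in HE B, within the HE range.

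The milk gene score (9 measured of 12 listed) was 2.49 in HE (from 2.36 to 2.65), 1.61 in HP, 1.16 in H and 0.54 in HEP. On bromocriptine it was -0.08 in BP, -1.0 in BE, -1.90 in BEP and -2.73 in B, and it was -0.09 in sham. In BP it ran from -2.02 to 2.25, the highest in BP A. Haloperidol raised 8 of the 9 on average (3.85% of all probe sets), among them CSN2, beta-casein (3.71 ± 0.68, limma adjusted p = 0.000818). In HE against BE 5 of 9 rose (11.9% of all genes called), with CSN2 at 3.25 ± 1.36 (adjusted p = 0.122). Of 18 measured luminal epithelial markers 2 rose and 1 fell in HE against BE, and 6 rose and 1 fell in HE against H, where 11.9% and 23.3% of all genes were called. The part of epithelial content or secretory state in the values of GPAM was not tested.

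The genes whose signal ran most like each of the 6 were taken by Pearson r over the 36 animals among 6192 genes, as a description in which group differences and shared arrays both count. For GPAM they were C4BPB, a subunit of the complement regulator C4b-binding protein (r = 0.936), SEC14L2 (0.904), RHOU, a small GTPase (0.900), PDZK1IP1 (0.895) and SLC28A3, a nucleoside transporter (0.895). C4BPB was at 5.11 ± 0.34 (SD, n = 4) in BE and 9.19 ± 0.71 in HE, and it was 7.52 ± 0.83 in HEP. For ME1 the closest was ELOVL6 (0.940), then ACADSB, an acyl-CoA dehydrogenase (0.919), and SLC2A5, the fructose transporter (0.913). ELOVL6 was followed by ME1, ACADSB (0.928) and ACSL1 (0.920), and PNPLA3 by ACSL1 (0.860), ACADSB (0.845) and ELOVL6 (0.834). FDPS ran with C7H14orf1 (0.907), NIP7 (0.907) and SLC25A5, a mitochondrial ADP/ATP carrier (0.903), and ACSS2 less closely with HSPA9 (0.759), MRPL39 (0.744) and PM20D2 (0.720).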

How the data were processed

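Biotin-labelled copies of the RNA of 36 mammary glands were put on Affymetrix pig arrays, 1 for each animal. The authors made the deposited probe set signals with RMA, per the submitters' processing notes, and these were taken as log2 values. They lay between 1.55 and 13.7, the base of the logarithm is not stated in the labels used here, and every fold rests on that reading. They were used without further normalization. Of 20792 probe sets 9149 had 1 gene symbol, 178 several and 11465 none here, in GEO's platform annotation. The genome build is not given in the sources used here and no positions or sequences were used.

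A model with 1 mean per group was fitted to all 36 arrays with limma 3.58.1 in R 4.3.3 (27 residual degrees of freedom, 4.16 prior), and two-sided p-values were adjusted by Benjamini and Hochberg within each of 16 planned comparisons and 1 added later (HEP against HE). The average effects and interactions leave out the sham group. The 6 genes, the 13 gene lists and the rule for named genes were chosen with earlier results of these data known. The rule took, from each lipid list, up to 4 genes called for haloperidol and up to 3 in the interaction with the largest change, the genes most like each of the 6, and a fixed set of lipid genes, regulators and markers whether or not they passed. Exact permutation tests were two-sided. The letters A to D in the titles were not treated as pairing animals in the main fit. The median correlation of deviations of same-letter animals was 0.05, from -0.41 to 0.46, against -0.02 for animals of other letters. Such a median cannot show that the letters had no effect. The labels give each combination to separate animals. No 2 arrays were alike beyond a correlation of 0.984. Scripts were tested on simulated data. Arrays have no read depth, and the 4 animals per group limit the precision. Alternatives were a filter on dim probe sets, a second normalization, median centring, a variance trend, array weights, the letter as a block, other probe set rules, smaller fits and each array left out.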

Additional observations from a re-analysis of the deposited data

Results flagged for a closer look

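The response of 4 genes to haloperidol differed with estrogen by the test of the interaction itself, which called 7.48% of all probe sets. They were GPAM (1.91), FDPS (1.23), ACSS2 (0.77) and ELOVL6 (-1.68). The ACSS2 call was lost without any 1 of 18 of the 36 animals and the FDPS call without any 1 of 12, BP A among them for both. In 3 of 54 groups of 4 values, 1 animal lay further from the rest than a Dixon test at the 95% level allows, and chance marks about 1 in 20 such groups. ELOVL6 was 9.09 in HE B, where the other HE animals lay between 9.35 and 9.40. FDPS was 10.88 in sham B and 11.23 in HEP C, each above the other animals of its group.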

How the results depend on the processing

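No called change of the 6 genes reversed under any alternative. Of 1003 values under 10 other settings 976 kept their side of the threshold (13 of them, uncalled, took another sign), 8 lost their call and 19 gained one. Of 3672 values with 1 animal left out 3567 kept their side (35 of them, uncalled, took another sign), 86 lost a call and 19 gained one. The number of the 6 genes called was 4 for the interaction (2 to 6 with 1 animal left out, 4 to 6 under the other settings, with PNPLA3 called in 5 of 10, ME1 in 2, and ACSS2 lost with array weights, adjusted p = 0.0586), 2 in HEP against BEP (1 to 4 with 1 left out, 4 with array weights, 1 with the letter as a fixed block), 2 in HEP against sham (0 to 3 with 1 left out, 1 with median centring, with the mean of all probe sets or with 1 probe set per gene, 0 with only the groups compared), and 0 in HEP against HE (0 to 2 with 1 left out, 1 with array weights). The letter as a replicate block lost only PNPLA3 in HEP against BEP (adjusted p = 0.0529), and 52 of 144 same-letter pairs correlated above 0.1. That 14 of 36 arrays correlated best with their own letter is a hint from the data, not from the design. Counts over all probe sets moved more: without BP A haloperidol called 1241 higher and 1190 lower against 801 and 650, the interaction 524 and 505 against 804 and 752, and HEP against BEP 348 and 298 against 132 and 93. The causes were not tested. Without dim probe sets GPAM was not tested, and a search of promoters for motifs was not run. Depth does not apply, and GPAM near the lower quartile is the value least well measured.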

Other observations

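Markers of other cell types moved in some of the comparisons in which the lipid genes were called. In HE against H, where all 6 genes were called, 5 of 12 skeletal muscle, 5 of 9 endothelial and 3 of 9 leukocyte markers fell and 1 of 5 myoepithelial markers rose, with 23.3% of all genes called. Estrogen on average lowered 9 of 12 muscle, 6 of 9 endothelial and 3 of 9 leukocyte markers and raised 2 of 5 myoepithelial and 1 of 2 skin markers (38.7% of all genes called). Of 12 measured skeletal muscle markers, 9 measured leukocyte markers, 5 measured myoepithelial markers and 2 measured markers of keratinised skin, 0 were called in HE against BE (limma, with 5363 of all probe sets at an unadjusted p under 0.05). Of 9 endothelial markers 1 fell there, where 5.05% of all probe sets were called lower and 5.46% higher. In the interaction of estrogen with haloperidol 3 leukocyte markers and 2 endothelial markers were lower (3.62% of all probe sets). None of the muscle, myoepithelial or skin markers was called. The part of all these cell types in the values of the 6 genes was not tested. The leukocyte score was 0.48 in H and -0.37 in HE.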
